A study of Nematostella vectensis with 4 samples.

Results

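The gene set described here held 100 of the 24526 genes counted in single cells of 24 h gastrulae of the sea anemone Nematostella vectensis. Its members were the genes most elevated in progenitor-marked cells that did not reach a higher level in neurons or cnidocytes. Whole embryos of 1 stage were dissociated into a cell suspension, and 4 droplet libraries (replicates 1 to 4) were made on 1 chip. There was no treatment and no mutant, so that every comparison below is between classes of cells within the same libraries. The labels do not say that the replicates came from separate cultures of embryos, and the p-values below therefore measure only the spread between these 4 libraries, which may be technical.

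In Nematostella, neurons, cnidocytes (the stinging cells of cnidarians) and secretory gland cells arise from progenitor cells in the embryo. Differentiating neural cells switch on proneural transcription factors and later genes of the mature cell. Nvath-like belongs to the atonal family of basic helix-loop-helix factors, NvashA to the achaete-scute family, Nvmyc1 to the Myc transcription factors and Nvnanos to the nanos family of RNA-binding regulators. NvLWamide encodes a neuropeptide precursor of neurons, Nvncol1 and Nvncol3 encode minicollagens of the cnidocyte capsule, Nvelav encodes an RNA-binding protein of neurons and Nvmucin marks gland cells.

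Classes were read from these markers in the 16089 cells (2268 to 7234 per library) with at least 500 genes. Progenitor cells held no UMI (unique molecular identifier, 1 counted RNA molecule) of NvLWamide or Nvncol1, at least 2 of Nvath-like, Nvmyc1 and Nvnanos, and at least 400 of these 3 genes together per 1000000 UMIs of the cell. There were 394 of them, or 71 to 131 per library. Genes were ranked by their level in these cells over that in 12181 cells with none of the 5 marker genes, as CPM (UMIs of the gene per 1000000 UMIs of the class) plus 1. Candidates had at least 50 UMIs in the progenitor cells, which left 7369 genes once the markers were set aside, and a lower CPM in both neurons and cnidocytes than in progenitor cells, which left 5113 genes. The members were thus chosen by the measured ratio of progenitor cells to these other cells, and that ratio is given only as a description.

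The members' ratios ran from 2.68 to 35.1 with a median of 5.29, and their level in progenitor cells from 13.0 to 2402 CPM. NV2g001757000.1 had the highest ratio (35.1) and NV2g018825000.1 the next (21.7). The last places inside the set went to NV2g014752000.1 (2.71) and NV2g015740000.1 (2.68), and NV2g023553000.1 (2.67) was the first outside it. Only 8 genes over the lowest member ratio were kept out by the bound on neurons and cnidocytes, 3 by neurons, 3 by cnidocytes and 2 by both. The genes carry identifiers without names or positions in the sources used here, and none of the 100 matched the gene table at hand, so that no function is given for any of them. Members with neighbouring identifiers occurred in 6 pairs, such as NV2g016402000.1 and NV2g016403000.1. NV2g018825000.1 lay 2 identifiers from Nvmyc1 and NV2g006610000.1 lay 2 from Nvath-like. No genome position was at hand to tell whether neighbouring identifiers are neighbouring genes, and reads shared between near copies could not be checked.

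Most members were spread over many progenitor cells. The share of progenitor cells with a UMI of a member ranged from 1.02% to 96.4% with a median of 27.0%, and 89 members had at most 10% of their UMIs in any 1 cell. Exceptions were NV2g018346000.1, with 94.1% of its UMIs in 1 cell, and NV2g017944000.1, with 85.3%. NV2g018346000.1 measured 0, 0, 5.14 and 59.6 CPM in the progenitor cells of replicates 1 to 4. It was thus high in 1 library only, and neither gene can be read as a gene of progenitor cells in general. NV2g022218000.1 was found in 9 progenitor cells, with 41.4% of its UMIs in 1 of them.

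The members were read in 4 further classes. Neurons (556 cells) held at least 3 UMIs of NvLWamide, and cnidocytes (292) at least 2 of Nvncol1. NvashA cells (109) held at least 2 UMIs of NvashA, and gland cells (301) at least 3 of Nvmucin, in both cases with no UMI of NvLWamide or Nvncol1. The remaining cells (11849) were the cells with none of the 5 marker genes that were neither NvashA nor gland cells. A further 18 cells met both the neuron and the cnidocyte rule and were left out of these classes. The NvashA and gland cells were also required to lie outside the progenitor class, but they could hold progenitor markers.

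Markers that had not defined a class matched it only in part. Nvelav measured 215 ± 40.1 CPM (SD, n = 4 libraries) in neurons, 89.5 ± 17.8 in NvashA cells and 13.3 ± 1.75 in the remaining cells. Nvncol3 measured 9996 ± 999 CPM in cnidocytes, yet it was still at 1195 ± 61.4 in the remaining cells and at 799 ± 294 in neurons. In NvashA cells it was at 1377, 33.2, 65.2 and 1172 CPM in replicates 1 to 4, so that this small class differed widely between libraries, and the part of this in its results was not tested. The remaining cells were therefore not free of cnidocyte RNA. The classes also differed in depth, with a median of 12911 UMIs per cnidocyte, 7597 per progenitor cell, 7086 per NvashA cell, 5434 per neuron, 3525 per gland cell and 2983 per remaining cell. Doublets were not removed, and 38 of the 18779 barcodes occurred in more than 1 library.

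The name of the set, genes kept in differentiating cells, fitted the classes to different degrees. The median member stood at 1.74 ± 0.229 times its level in the remaining cells in neurons (SD over 4 library medians), at 2.05 ± 0.419 times in NvashA cells, at 1.09 ± 0.0444 times in gland cells and at 1.05 ± 0.302 times in cnidocytes. In progenitor cells it stood at 5.46 ± 0.332 times. As sums of UMIs, these levels give deep cells more weight. Split by the share of the marker as described below, NvLWamide-high neurons were at 1.26 ± 0.354 and NvLWamide-low ones at 1.80 ± 0.278 times. Nvncol1-high cnidocytes were at 0.492 ± 0.0743 and Nvncol1-low ones at 1.16 ± 0.301 times (both splits read after seeing the data). The values near 1 turned with the processing, since cnidocytes were at 0.586 times with the top 5% of UMIs left out and at 0.573 times as a mean over cells, and gland cells at 0.897 and 0.618 times. Of the 100 members, 49 in cnidocytes and 46 in gland cells were below the remaining cells in CPM pooled over the libraries, against 9 in neurons and 8 in NvashA cells. The share of all genes was not counted for this measure, and nothing is read from these counts. The median of all 12620 genes with enough UMIs was 0.631 times in cnidocytes, 0.745 in gland cells, 0.822 in neurons, 0.839 in NvashA cells and 0.899 in progenitor cells. Every class thus sat below 1 for genes at large, and cnidocytes and gland cells sat lowest. These ratios share the remaining cells, most of the cells against which the members were ranked, and they are descriptions without a test.

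In neurons, 66 of the 100 members were above the remaining cells in 4 of 4 libraries, against 15.6% of all genes. The count was 44 in NvashA cells (8.69% of all genes), 27 in gland cells (13.9%), 24 in cnidocytes (12.5%) and 97 in progenitor cells (16.2%). The rule chose genes that are low in most of the remaining cells, and nothing is read from these counts against the background. By this measure 22 members were above the remaining cells in both neurons and cnidocytes (3.26% of all genes were), 44 in neurons only, 2 in cnidocytes only and 32 in neither. Outside progenitor cells, the highest level of a member was in NvashA cells for 53 members, in neurons for 23, in gland cells for 14 and in cnidocytes for 10. The rule bounds neurons and cnidocytes but not NvashA or gland cells, so that this order is not independent of it. The NvashA cells were also the fewest (109). The share of all genes was not counted for this measure, and nothing is read from it.

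**Figure D1:**
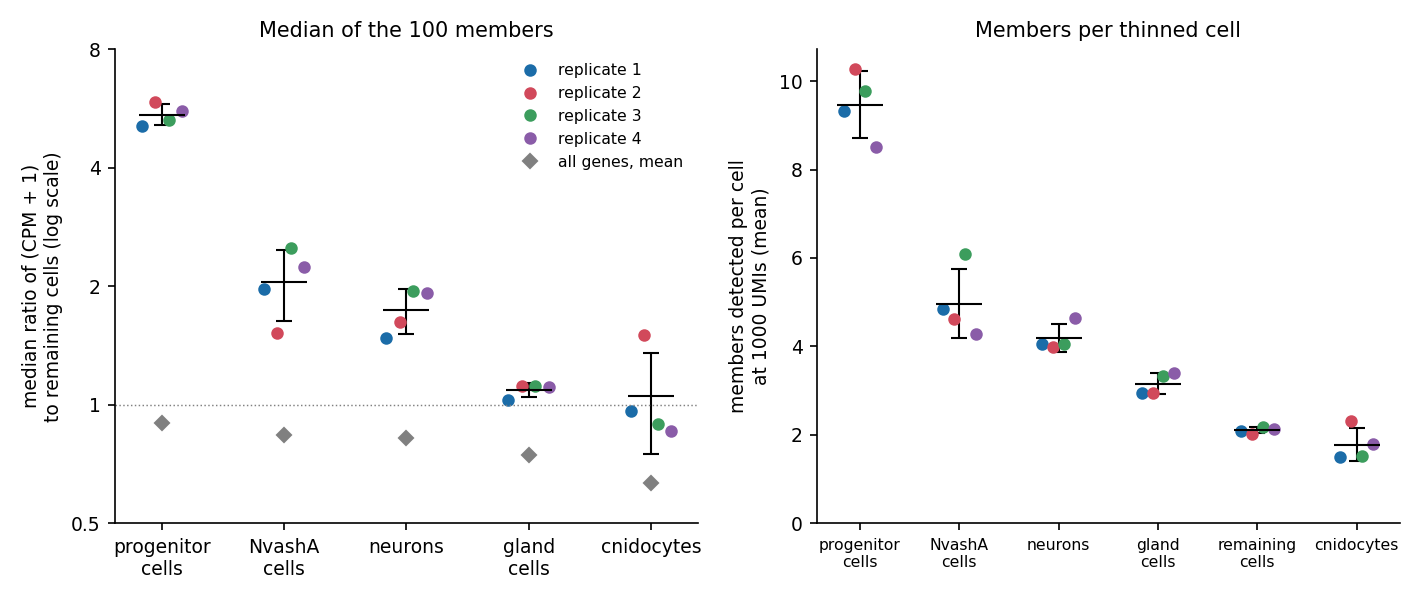
Members by class of cells. Left, the median over the 100 members of (CPM + 1) in a class over (CPM + 1) in the remaining cells, on a log axis; right, the mean number of members detected per cell at 1000 UMIs. Coloured points are the 4 libraries, black bars the mean and SD over them, and grey diamonds the mean of the all-gene medians. Cnidocytes of replicate 2 (1.50) stand above those of the other libraries (0.856 to 0.963), and in the right panel the cnidocytes lie near the remaining cells.

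Because cnidocytes were sequenced most deeply, cells were also thinned at random to 1000 UMIs, which left out 10 progenitor cells, 5 NvashA cells, 29 neurons, 18 gland cells, 2 cnidocytes and 1694 remaining cells as too shallow. Of the remaining cells deep enough, 500 per library were drawn. A thinned progenitor cell held 9.47 ± 0.750 members (mean over libraries, SD, n = 4), an NvashA cell 4.96 ± 0.783 and a neuron 4.18 ± 0.313. A gland cell held 3.15 ± 0.242, a remaining cell 2.11 ± 0.0653 and a cnidocyte 1.77 ± 0.377. The library means of neurons (3.99 to 4.65) and NvashA cells (4.29 to 6.08) overlapped, and all of both were above those of gland cells (2.94 to 3.40), which in turn were above those of cnidocytes (1.50 to 2.31). Without thinning, the class medians given above overlapped between gland cells and cnidocytes. In 10.7% ± 6.18 of thinned neurons and 11.0% ± 7.78 of NvashA cells the number of members reached the median of the progenitor cells of the library, as it did in 3.14% ± 2.28 of gland cells and 1.85% ± 1.15 of remaining cells. In neurons replicate 4 was highest, at 19.7% against 5.63% to 9.09% in the other libraries, and its progenitor median was also the lowest, at 7 members. The median was reached in 0 of 290 cnidocytes thinned to 1000 UMIs. Pooled over the libraries, this allows a share of up to 1.03% for counting error alone, without the spread between libraries. Thinned to 2000 UMIs, 0%, 0%, 2.94% and 0.833% of the cnidocytes of replicates 1 to 4 reached the progenitor median of their library. The absence of such cnidocytes thus held at 1000 UMIs and not at 2000.

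Part of the signal was in cells that still carried progenitor markers. All 3 markers were at 0 in 64.4% of neurons, 80.1% of cnidocytes, 56.0% of NvashA cells and 90.0% of gland cells. In those cells the median member stood at 1.25 ± 0.331 times the remaining cells in neurons, with libraries between 0.930 and 1.59. The median was 0.899 ± 0.674 in NvashA cells, 0.860 ± 0.0933 in gland cells and 0.533 ± 0.122 in cnidocytes. In the marker-free neurons 35 members were above the remaining cells in 4 of 4 libraries. The share of all genes was not counted for marker-free cells, and nothing is read from this count. Cells without a marker UMI share a part of the rule that defines the remaining cells, and the part of this in the lower medians was not tested. The cnidocytes of replicate 2, whose median was highest, also carried more Nvath-like (52.1 CPM against 3.897 to 24.1 in the other libraries) and Nvnanos (19.3 against 1.73 to 5.65).

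The members with the highest ratio to the remaining cells in marker-free neurons were NV2g019965000.1 and NV2g008773000.1. NV2g019965000.1 measured 321, 382, 274 and 379 CPM in the marker-free neurons of replicates 1 to 4, which was 17.1 ± 6.93 times its level in the remaining cells. NV2g008773000.1 measured 52.8, 72.6, 52.3 and 55.0 CPM there, or 10.2 ± 2.73 times. In marker-free cnidocytes the highest ratios were those of 2 others, NV2g013296000.1 and NV2g008421000.1. NV2g013296000.1 measured 184, 234, 264 and 174 CPM, which was 11.9 ± 4.28 times the remaining cells. NV2g008421000.1 measured 167, 279, 267 and 196 CPM, or 9.96 ± 2.24 times. For all 4 genes every marker-free library was above every library of the remaining cells.

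Some members were not highest in progenitor cells. In gland cells 8 members had a higher mean CPM than in progenitor cells, 5 of them in 4 of 4 libraries, and in NvashA cells 8 did, 1 of them in 4 of 4. In neurons 5 and in cnidocytes 1 did so on the mean over libraries, although the rule had bounded the pooled CPM of both classes, and none of these was higher in 4 of 4. The rule did not bound NvashA or gland cells, so that these counts are not independent of it. The share of all genes was not counted, and nothing is read from the counts. NV2g019965000.1 and NV2g020746000.1 were above progenitor cells on the mean in NvashA cells, neurons and gland cells alike. NV2g019965000.1 measured 252, 357, 203 and 190 CPM in the progenitor cells of replicates 1 to 4, and 497, 415, 616 and 270 CPM in NvashA cells. Gland cells were at 342, 434, 433 and 566 CPM, and cnidocytes at 16.0, 72.5, 7.23 and 16.1 CPM. Both NvashA and gland cells were thus above the progenitor cells of their own library in 4 of 4 libraries, and all cnidocyte libraries were below.

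Cnidocytes and neurons were then compared directly. The comparison asks whether the members were kept alike in the 2 differentiated classes. The rule did not compare them, but it used both levels, each bounded from above by the same progenitor level. This bound kept out 3 genes by neurons, 3 by cnidocytes and 2 by both. The remaining cells, most of those ranked against, held Nvncol3 at 1195 CPM (9996 in cnidocytes) and Nvelav at 13.3 (215 in neurons). The counts are thus not independent of the rule, and its part in them was not tested. UMIs were summed per library and class, and edgeR's quasi-likelihood test was fitted to all 11074 genes with enough counts, with Benjamini-Hochberg adjustment over all of them and a threshold of 0.05. Of the 100 members 84 passed the filter on low counts. Among them 26 were lower in cnidocytes than in neurons, against 10.9% of all genes tested, and 6 were higher, against 14.8%. The median log2 fold change of the members tested was -0.37, that of all genes -0.03. The members' median moved with the processing. It was -0.82 with the top 5% of UMIs left out, -0.78 in cells without progenitor markers and -0.25 without replicate 4. Between the marker-high cells of both classes only, chosen after seeing the data, it was -2.15. The all-gene median was not taken in these settings. Without replicate 4, the library with the most neurons, 15 members were lower.

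**Figure D2:**
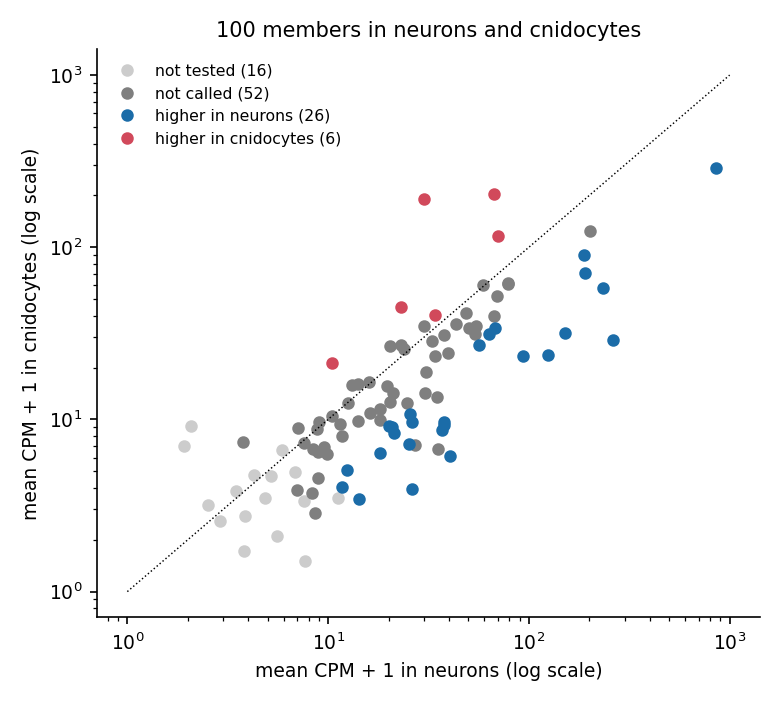
The 100 members in neurons (x axis) and cnidocytes (y axis), each as the mean CPM + 1 over 4 libraries on log axes, with equality as a dotted line. Blue points (26) were higher in neurons and red points (6) in cnidocytes by edgeR at an adjusted p of 0.05, dark grey points (52) were not called and light grey points (16) had too few counts to be tested.

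NV2g013296000.1 measured 146, 151, 326 and 134 CPM in cnidocytes and 21.2, 21.7, 36.9 and 36.2 CPM in neurons of replicates 1 to 4. The classes did not overlap, and replicate 3 was far above the other cnidocyte libraries. Its log2 fold change was 3.11 (SE 0.36, edgeR adjusted p = 6.17e-05). NV2g008421000.1 measured 139, 220, 295 and 162 CPM in cnidocytes and 44.3, 22.8, 87.4 and 109 CPM in neurons, again without overlap, with a log2 fold change of 2.02 (SE 0.42, edgeR adjusted p = 0.0039). The other 4 members that were higher in cnidocytes were NV2g000996000.1, NV2g000919000.1, NV2g009104000.1 and NV2g023131000.1, with log2 fold changes between 0.67 and 1.46.

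The largest falls were those of NV2g001391000.1 and NV2g019965000.1. NV2g001391000.1 measured 3.03, 6.80, 1.45 and 0.595 CPM in cnidocytes and 16.1, 24.97, 36.2 and 23.9 CPM in neurons. All 4 neuron libraries were above all cnidocyte libraries, with a log2 fold change of -2.99 (SE 0.53, edgeR adjusted p = 0.0013). NV2g019965000.1, at 218, 321, 261 and 249 CPM in neurons against the cnidocyte values given above, had a log2 fold change of -2.92 (SE 0.52, edgeR adjusted p = 0.0014). In cnidocytes 23.1% of its UMIs came from 1 cell, against 3.88% in neurons.

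Few members were called between neurons and NvashA cells, which hold a proneural factor and none of the 2 terminal markers. Of 69 members tested 3 were higher in NvashA cells, against 0.243% of 8215 genes, and 0 were lower by edgeR, against 1.12%. The rule bounds the members in neurons and not in NvashA cells, so that it favours higher over lower members here and the direction is not independent of it. At an unadjusted p below 0.05, 18 members were higher and 3 lower, and DESeq2 called 5 higher and 0 lower. The shares of all genes were not counted for these 2 measures, and nothing is read from them. The median log2 fold change was 0.32 for the members and 0.02 for all genes. In cells without progenitor markers it was -0.04 for the members, and 0 members were called in either direction. The fit rested on 15 to 49 NvashA cells per library, and only 1 member was higher without replicate 3 or without replicate 4.

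NV2g009336000.1 measured 110, 220, 167 and 108 CPM in NvashA cells and 34.1, 27.1, 38.9 and 53.7 CPM in neurons, with a log2 fold change of 1.84 (SE 0.27, edgeR adjusted p = 0.0067). NV2g006610000.1 measured 29.0, 62.3, 43.5 and 55.7 CPM against 18.8, 11.9, 10.9 and 18.4 CPM, with a log2 fold change of 1.55 (SE 0.30, edgeR adjusted p = 0.026). Neither gene overlapped between the classes. The call of NV2g009336000.1 was lost without replicate 3 (log2 fold change 1.78), with the top 5% of UMIs left out (2.36) and in cells without progenitor markers (1.23). The call of NV2g006610000.1 was lost without replicate 2, 3 or 4 (1.38 to 1.46), with the library as a replicate block (1.50) and with the top 5% of UMIs left out (1.55). The remaining member called was NV2g004684000.1, with a log2 fold change of 1.42.

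**Figure D3:**
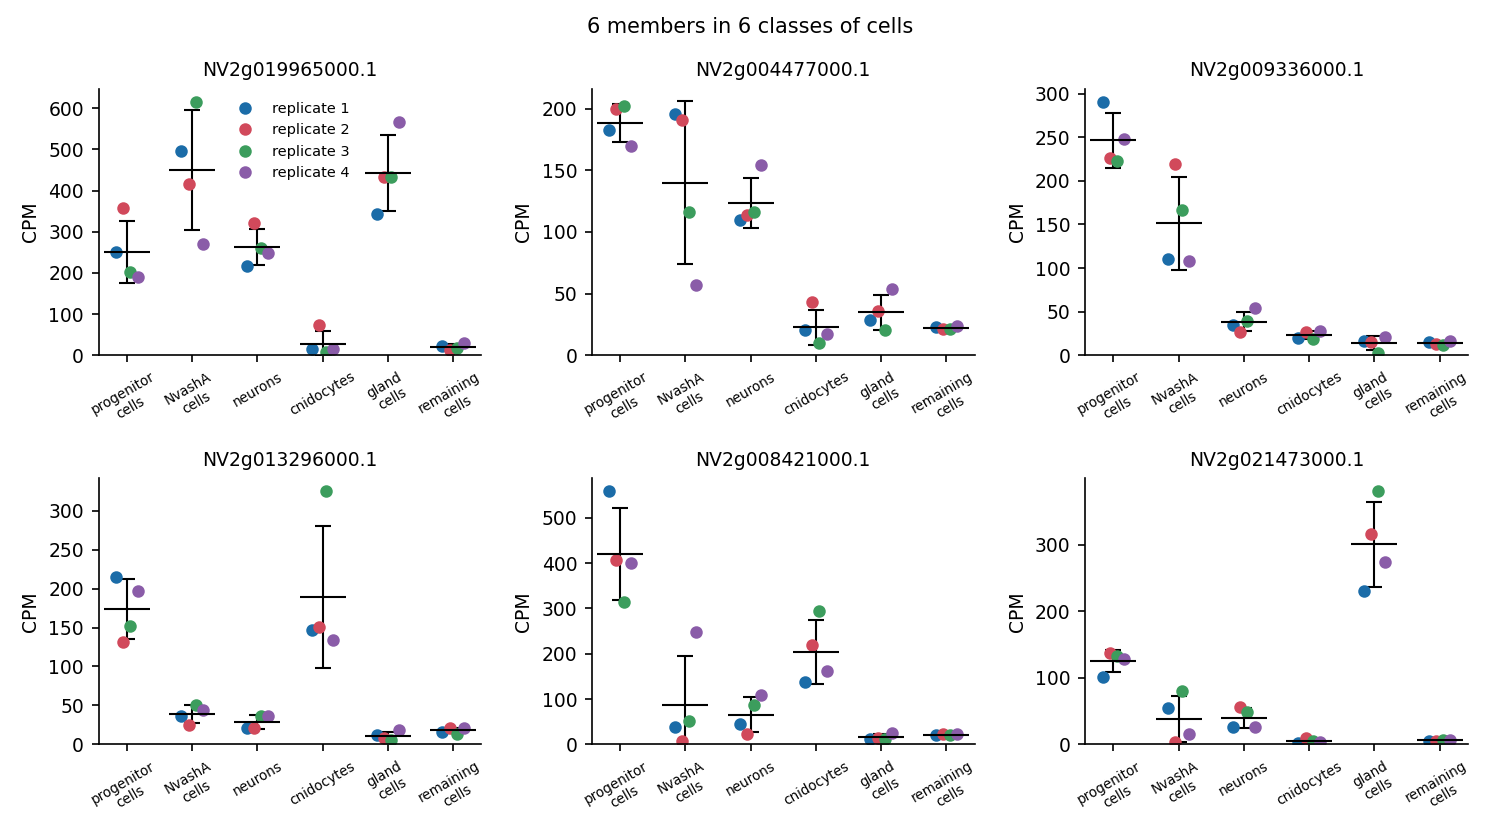
CPM of 6 members in 6 classes of cells. Coloured points are the 4 libraries and black bars the mean and SD over them, on linear axes that start at 0. NV2g019965000.1 and NV2g004477000.1 are low in cnidocytes, NV2g013296000.1 and NV2g008421000.1 are higher in cnidocytes than in neurons, NV2g009336000.1 is higher in NvashA cells than in neurons, and NV2g021473000.1 is highest in gland cells.

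In gland cells the members split. Of 62 members tested 18 were lower than in neurons, against 7.96% of 7919 genes, and 7 were higher, against 16.1%. Their median log2 fold change was -0.61, and that of all genes -0.04. Without replicate 4, 4 members were higher. The rule bounds the members in neurons and not in gland cells, so that the count of higher members is not independent of it. The neurons enter all 3 of these comparisons, which are therefore given side by side and not as independent results.

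NV2g021473000.1 measured 231, 317, 381 and 274 CPM in gland cells and 26.7, 56.4, 48.5 and 26.9 CPM in neurons, with a log2 fold change of 3.09 (SE 0.27, edgeR adjusted p = 3.46e-06). It also exceeded its level in progenitor cells (100.8, 138, 132 and 128 CPM) in each library. In cnidocytes it was at 2.60 to 9.06 CPM, with a log2 fold change of -2.82 against neurons (SE 0.45, edgeR adjusted p = 0.00061). NV2g014259000.1 measured 353, 331, 425 and 365 CPM in gland cells and 56.8, 94.4, 69.0 and 90.8 CPM in neurons, with a log2 fold change of 2.37 (SE 0.17, edgeR adjusted p = 8.85e-07). Both genes thus separated the classes without overlap.

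NV2g018482000.1 measured 4.13, 10.4, 10.3 and 27.0 CPM in gland cells and 49.4, 57.5, 64.2 and 61.0 CPM in neurons. The classes did not overlap, and the log2 fold change was -2.01 (SE 0.36, edgeR adjusted p = 0.0011). NV2g000625000.1 had the larger fitted fall, -2.31 (SE 0.75, edgeR adjusted p = 0.042), from 26.3, 71.6, 20.5 and 18.4 CPM in neurons to 0, 16.7, 5.15 and 4.49 CPM in gland cells. Its values did not overlap either, but 18.6% of its UMIs in neurons came from 1 cell, and the call was lost without replicate 1, 3 or 4 (log2 fold changes of -2.48 to -1.90) and with the other marker minimums (-1.29).

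Within the neurons, each library was split at the median share of NvLWamide among the cell's UMIs, which was left out of the counts, to ask how the members went with the level of a terminal neuronal gene. The 2 groups of neurons are ranges of 1 measure and not types, and 5 to 17 cells per library lay within 10% of the split. NvLWamide-high cells were shallower in each library (medians of 1820 to 6338 UMIs against 6604 to 33533). With a minimum of 3 NvLWamide UMIs per neuron, only a deep cell can hold a low share, so that the split is in part one of depth by construction. Nvelav measured 633 ± 47.1 CPM in NvLWamide-high neurons and 121 ± 40.8 in NvLWamide-low ones, and NvashA 994 ± 65.3 and 183 ± 39.1. Among markers of other classes, Nvncol3 measured 177 ± 184 CPM in the high and 944 ± 344 in the low neurons, Nvwnt2, a Wnt ligand of the trunk ectoderm, 45.4 ± 31.3 and 163 ± 73.0, and NvsnailA, a mesoendodermal factor, 6.51 ± 6.61 and 24.1 ± 12.8. The part of depth and of other cells' RNA in the results on this split was not tested. The progenitor markers did not move alike, since Nvath-like (19.7 ± 23.0 and 58.9 ± 15.0) and Nvmyc1 (5.73 ± 1.72 and 25.7 ± 4.23) were lower on the mean in the high neurons while Nvnanos was at 40.5 ± 20.7 against 15.2 ± 7.102.

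Members went both ways. Of 57 tested 15 were higher in NvLWamide-high neurons, against 24.9% of 6951 genes, and 11 were lower, against 22.3%, by the same edgeR test. The members' median log2 fold change was 0.12, and that of all genes -0.07. Their shares of calls were thus close to those of genes at large. Without replicate 3, 6 members were lower, and in cells without progenitor markers 9 were higher and 0 lower. With the deepest cells left out (the top 5% of UMIs), 7 were higher and 2 lower.

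NV2g004477000.1 measured 297, 338, 286 and 512 CPM in NvLWamide-high neurons and 70.4, 66.0, 70.4 and 81.9 CPM in the low ones. The high neurons were above the low ones in 4 of 4 libraries without overlap, with a log2 fold change of 2.45 (SE 0.22, edgeR adjusted p = 1.47e-05). NV2g014752000.1 measured 92.2, 135, 70.6 and 99.02 CPM against 18.5, 26.4, 18.3 and 28.5 CPM, with a log2 fold change of 2.20 (SE 0.24, edgeR adjusted p = 4.64e-05). In the comparison with cnidocytes, NV2g004477000.1 was also lower there than in neurons, by a log2 fold change of -2.09 (SE 0.32, edgeR adjusted p = 0.00044).

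NV2g003468000.1 was at 8.99, 0, 0 and 3.47 CPM in NvLWamide-high neurons and at 23.8, 34.3, 37.4 and 23.5 CPM in the low ones, with a log2 fold change of -2.68 (SE 0.55, edgeR adjusted p = 0.0025). NV2g018482000.1 was at 11.2, 0, 9.63 and 29.5 CPM in the high and at 57.5, 70.0, 79.1 and 67.5 CPM in the low neurons, with a log2 fold change of -1.95 (SE 0.40, edgeR adjusted p = 0.0025). Neither gene overlapped between the 2 groups. The zeros stand in shallow sums and mean that no UMI was counted there.

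The same split by Nvncol1 in cnidocytes left 32 members with enough counts. Of these 10 were lower in Nvncol1-high cnidocytes, against 13.6% of 5086 genes, and 5 were higher, against 21.7%. The median log2 fold change was -0.58 for the members and -0.11 for all genes. With the library as a replicate block the counts were 3 lower and 3 higher. They were 4 lower and 2 higher without replicate 1, 5 lower without replicate 2, 6 lower without replicate 3 and 3 higher without replicate 4. In cells without progenitor markers the test called 0 lower and 2 higher, and 0 lower and 1 higher with the top 5% of UMIs left out. Here too the high cells were shallower, at medians of 3339 to 13118 UMIs against 16072 to 37022, and 18 to 67 cells per library made up each side of the split. The minimum of 2 Nvncol1 UMIs per cnidocyte likewise builds part of this depth difference into the split. Other markers moved with the split as well. In the high and low cells, Nvath-like was at 6.01 ± 5.86 and 27.4 ± 25.8 CPM, Nvmyc1 at 12.1 ± 4.22 and 37.1 ± 20.6 and Nvnanos at 1.35 ± 1.75 and 9.92 ± 10.3. Nvwnt2 was at 49.3 ± 36.3 and 122 ± 63.2 CPM, and NvashA at 152 ± 81.4 and 51.8 ± 49.5. The part of these differences in the results was not tested.

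**Figure D4:**
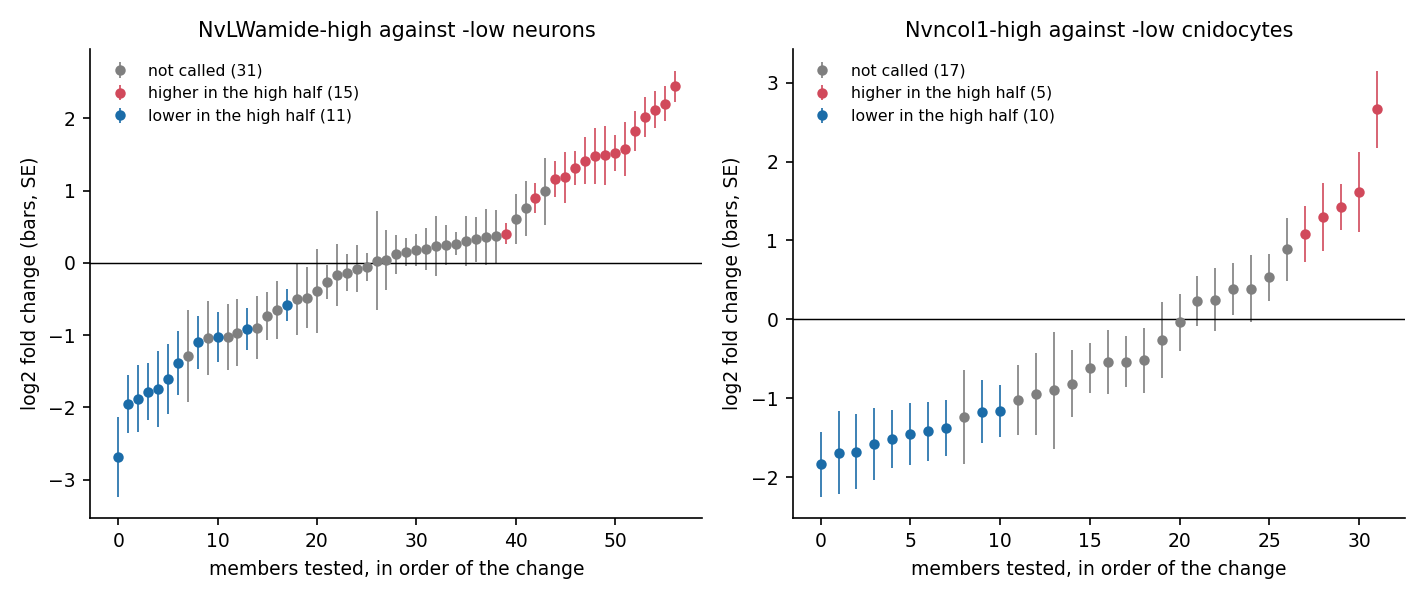
Log2 fold changes of the members tested, in ascending order, between NvLWamide-high and -low neurons (left, 57 members) and between Nvncol1-high and -low cnidocytes (right, 32 members). Points are edgeR estimates and bars approximate standard errors; red points were called higher (15 and 5) and blue points lower (11 and 10) in the high cells at an adjusted p of 0.05.

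NV2g013296000.1 measured 471, 368, 519 and 519 CPM in Nvncol1-high cnidocytes and 37.6, 85.5, 214 and 59.6 CPM in Nvncol1-low ones. No library overlapped, and the log2 fold change was 2.66 (SE 0.49, edgeR adjusted p = 0.0032). The high cells were also above the progenitor cells of each library (131 to 214 CPM). NV2g009104000.1 measured 229, 157, 158 and 188 CPM against 59.6, 118, 105 and 88.7 CPM, with a log2 fold change of 1.42 (SE 0.29, edgeR adjusted p = 0.0053), which was 0.54 and no longer called with the top 5% of UMIs left out.

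NV2g017599000.1 was at 6.90, 19.6, 11.9 and 23.9 CPM in the high and at 109, 61.9, 73.0 and 45.1 CPM in the low cells, with a log2 fold change of -1.83 (SE 0.41, edgeR adjusted p = 0.0082). NV2g010382000.1 was at 15.5, 9.81, 7.92 and 9.20 CPM against 30.1, 95.8, 43.3 and 32.3 CPM, with a log2 fold change of -1.69 (SE 0.53, edgeR adjusted p = 0.031). The 2 groups did not overlap for either gene. The first call was lost without replicate 1 (-1.30), and the second without replicate 2, 3 or 4 (-1.76 to -1.15) and with the replicate block (-1.49).

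Progenitor cells were also compared among themselves. Of the 394 cells 253 held a UMI of Nvnanos and 141 had none counted, which can also be a sampling zero. As the rule asks for at least 2 of the 3 markers, all 141 held both Nvath-like and Nvmyc1. Of the positive cells 139 held all 3 markers, 60 Nvmyc1 and Nvnanos, and 54 Nvath-like and Nvnanos. The 2 groups thus differed in the other markers by construction, and the part of this in the results was not tested. The members were compared between the groups in a test that was added after the data had been seen. Of 86 members tested edgeR called 0 in either direction, as it did for 0.00% of 5396 genes. At an unadjusted p below 0.05, 39 members were higher in Nvnanos-positive cells and 1 was lower, against 3.02% and 3.35% of all genes. DESeq2 called 8 members higher and 0 lower, against 0.204% and 0.0741% of all genes, edgeR with a replicate block 3 higher, and edgeR with no filter on low counts 23 higher and 3 lower. The median log2 fold change was 0.46 for the members and -0.01 for all genes, and 45 members were higher in 4 of 4 libraries, against 8.69% of genes, and 1 was lower in 4 of 4, against 6.88%. The median depth of the 2 groups was 6135 to 8622 and 6126 to 7578 UMIs per library. The members were chosen for their level in these same progenitor cells, by a rule that used Nvnanos, and most of the cells (253 of 394) were Nvnanos-positive. The counts of higher and lower members and the direction on the median are therefore not independent of the rule. Nothing is read from them against the shares of all genes.

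The set itself depended little on single libraries. A list made by the same rule without 1 library shared 88 to 94 genes with it. Lists made in 2 libraries could be read in the other 2, which had no part in that choice. The list from replicates 1 and 2 shared 85 members and that from replicates 3 and 4 shared 79. Read in the libraries left out, the median gene of these lists stood at 4.16 to 5.18 times the remaining cells in progenitor cells, at 1.44 to 2.73 in NvashA cells, at 1.35 to 1.90 in neurons, at 0.844 to 1.25 in cnidocytes and at 0.901 to 1.15 in gland cells.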

How the data were processed

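The deposited matrices held UMI counts per gene and cell, made by the authors with Cell Ranger on reads in introns and exons. The study gives version 7.0, the submitters' notes 7.1.1 and the file headers 6.1.2, and the last was taken as that of the files. The counts were not normalized. The study's own filter asked for at least 500 genes and at most 10% mitochondrial UMIs. Here only the former was applied, the latter being an alternative (309 of 16089 cells). No cell annotation was used; classes and gene set were rebuilt from marker counts, with marker minimums for NvashA and gland cells set here, so that differences from the study may come from them. Library totals ran from 22980631 to 56880930 UMIs.

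UMIs were summed per library and class and tested with edgeR 4.0.16 in R 4.3.3 (TMM, filterByExpr, quasi-likelihood, no block), with Benjamini-Hochberg adjustment over all genes tested. Standard errors are the log2 fold change over the root of F and are approximate. DESeq2 1.42.0, another scaling, no filter, a library block and each library left out were alternatives. In simulated data the edgeR step recovered 42% to 60% of 2-fold and 86% to 94% of 4-fold changes over the 6 comparisons. Sums of 1 library pair the classes by design. Deviations of same-numbered sums correlated at 0.149 to 0.277 for the split neurons and at -0.179 to 0.0956 for the split cnidocytes. Against neurons they correlated at 0.0258 to 0.299 for cnidocytes, 0.0684 to 0.300 for NvashA cells and 0.0228 to 0.360 for gland cells. For the Nvnanos groups of progenitor cells they correlated at 0.0631 to 0.413. The members, lists and tests were chosen with earlier results of these data known. Named genes were the 2 with the largest called rise and fall per comparison among members with 1 direction in 4 of 4 libraries, the 2 with the highest progenitor ratio, ranks 99 to 101, and the leading 2 in marker-free neurons and cnidocytes with at least 20 UMIs. Others were named after their values were seen.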

Additional observations from a re-analysis of the deposited data

Results flagged for a closer look

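A value was set apart where 1 of 4 libraries lay far from the other 3 by Dixon's criterion; chance does so in about 1 in 20 groups, and 7 of 51 groups were. Cnidocytes of 1 library stood apart in 3 of them. NV2g013296000.1 was at 326 CPM in cnidocytes of replicate 3, against 134 to 151 in the other libraries. NV2g019965000.1 was at 72.5 CPM in cnidocytes of replicate 2, against 7.23 to 16.1. The median ratio of the members in cnidocytes was 1.50 in replicate 2, against 0.856 to 0.963. In neurons, NV2g000625000.1 was at 71.6 CPM in replicate 2, against 18.4 to 26.3, and a thinned neuron held 4.65 members in replicate 4, against 3.99 to 4.06. In marker-free neurons NV2g008773000.1 was at 72.6 CPM in replicate 2, against 52.3 to 55.0. The median ratio in gland cells was 1.03 in replicate 1, against 1.11 to 1.12.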

How the results depend on the processing

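Of 204 alternative values of the main results, 152 stayed within 1.5 times or 1 SD and 52 moved. No called fold change of a named member reversed in the settings where that member was tested. Some had too few counts in a setting. NV2g003468000.1, for example, was not tested in the NvLWamide split without the top 5% of UMIs or in cells without progenitor markers. The balance of higher and lower members differed between settings in both marker splits. In NvLWamide-high neurons 15 higher and 11 lower became 18 higher and 26 lower with no filter on low counts. In Nvncol1-high cnidocytes 5 higher and 10 lower became 2 higher and 0 lower in cells without progenitor markers. The members tested were not held the same between settings. The share of all genes was not counted in these settings, and nothing is read from the differences. The median ratios of NvashA cells, cnidocytes and gland cells fell below 1 under some of the settings below. For each comparison the cause was not tested. In cells with none of the progenitor markers the median ratio to the remaining cells was 0.899 in NvashA cells, 1.25 in neurons, 0.533 in cnidocytes and 0.860 in gland cells. As means over cells it was 1.41, 1.41, 0.573 and 0.618, in the same order. A pseudocount of 10 CPM gave 1.58 in NvashA cells and 1.39 in neurons. With the top 5% of UMIs left out it was 0.586 in cnidocytes and 0.897 in gland cells, and in marker-high cells only 1.26 in neurons and 0.492 in cnidocytes (chosen after seeing the data). At 500 UMIs gland cells held 1.32 times the members of remaining cells, against 1.50 at 1000.

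Members higher in NvashA cells than in neurons numbered 5 by DESeq2, 7 with no filter on low counts, 1 without the top 5% of UMIs, 0 in cells without progenitor markers and 8 against NvLWamide-high neurons only, where 8 were lower. In gland cells 2 were higher against NvLWamide-high neurons only, 34 were lower with no filter and 9 in cells without progenitor markers. In NvLWamide-high against -low neurons 26 were lower with no filter, 7 higher and 2 lower without the top 5% of UMIs, and 9 higher and 0 lower in cells without progenitor markers. In Nvncol1-high against -low cnidocytes 18 were lower with no filter, 3 higher and 3 lower with the replicate block, 1 higher and 0 lower without the top 5% of UMIs, and 2 higher and 0 lower in cells without progenitor markers. In Nvnanos-positive progenitor cells 8 were higher by DESeq2, 23 higher and 3 lower with no filter and 3 higher with the replicate block. The replicate block moved no other count by over 1.5 times.

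With 1 library left out in turn, members lower in cnidocytes than in neurons numbered 15 to 29, members higher in NvashA cells 1 to 3, members higher in gland cells 4 to 6, members lower in NvLWamide-high neurons 6 to 12, members higher in Nvncol1-high cnidocytes 2 to 5 and lower 4 to 8, and members higher in Nvnanos-positive cells 0 to 1. Depth let 86 of the 100 members be tested between progenitor cells and 32 in the Nvncol1 split.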

Other observations

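The 18 cells that met both the neuron and the cnidocyte rule had a median of 73281 UMIs, and the median member stood at 1.17 ± 0.221 times the remaining cells in them (SD, n = 4 libraries).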
